A study of Bos taurus with 16 samples.

Results

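The genes described here handle iron and heme. HMOX1, BLVRA and BLVRB break heme down, FTH1 and FTL store iron, TFRC takes it up, SLC40A1 exports it, CP oxidizes it outside the cell and SLC11A1 carries divalent metals out of phagosomes. The 9 genes were listed with earlier results of these data known, and their probes were found by name. The gene name or bracketed symbol in the scanner files gave 9 probes on 8 of the genes, and the gene identifier added a probe of SLC40A1 and a second one of BLVRA. Together they make 11 of the 21475 probes of the array. A further probe, LOC522336, is described in the files as similar to transferrin receptor protein 1. It is kept under that name as the 12th probe, because the reference gene table does not hold its identifier.

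CD14+ cells were sorted from the interplacentomal endometrium and from the cardiac blood of 4 pregnant cows (Bos taurus). The animals were at estimated days 164, 239, 242 and 248 of pregnancy and are called animals 1 to 4 in that order. No treatment was given, and the blood cells of the same animal serve as the comparison. Amplified RNA of both tissues of an animal was hybridized together on each of 2 arrays with 2 colours, and values are means of the 2 arrays. The value table of the authors matched each scanner file to the other technical replicate of its animal than the labels do, and the scanner files were read that way. The columns of that table carry the sample labels themselves, and it gave all 12 probes the sign reported here. Because the files were matched to that table, the shared sign cannot test the reading. With the files as attached, 10 of the 12 probes had the opposite sign. Levels are given as log2 normalized intensity and differences as log2 endometrium over blood, and levels of different probes are not compared.

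Macrophages are known for recycling iron. They take up hemoglobin from old or damaged red cells, open the heme ring with heme oxygenase and store the iron released in ferritin, a shell of heavy and light chains, or return it to plasma through ferroportin. Transferrin receptor brings in iron bound to transferrin, and its mRNA and those of the ferritins are under opposite control by iron regulatory proteins. In pregnancy, the conceptus draws its iron from the mother across the uterus.

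The probe sequences below are shown because each value rests on hybridization to a single stretch of 60 bases. The pairs of BLVRA and TFRC probes show that probes of a gene lie on different sequence. Capitals mark AATAAA, the hexamer known as the polyadenylation signal, searched only in the strand as printed.
HMOX1: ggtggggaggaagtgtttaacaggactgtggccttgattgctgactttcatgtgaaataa
BLVRA, brighter probe: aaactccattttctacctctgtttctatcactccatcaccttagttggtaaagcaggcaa
BLVRA, dimmer probe: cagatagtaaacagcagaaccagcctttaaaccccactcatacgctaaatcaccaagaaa
BLVRB: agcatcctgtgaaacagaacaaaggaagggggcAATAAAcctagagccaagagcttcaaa
FTL: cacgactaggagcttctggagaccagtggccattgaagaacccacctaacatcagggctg
TFRC, brighter probe: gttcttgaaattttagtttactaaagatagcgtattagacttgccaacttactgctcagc
TFRC, dimmer probe: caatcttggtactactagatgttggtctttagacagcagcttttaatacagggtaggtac
LOC522336: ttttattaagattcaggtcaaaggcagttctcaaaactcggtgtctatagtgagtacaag
SLC11A1: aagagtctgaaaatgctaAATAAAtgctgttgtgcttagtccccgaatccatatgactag
The hexamer was found in 2 of the 12 probes, those of BLVRB and SLC11A1, and in 11.9% of all 21256 probes of 60 bases. The longest run of bases that any of the 12 probes shared with another probe of the array, on either strand, was 16 bases, in the FTL probe.

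The cells had been sorted on CD14 within the scatter gate of monocytes. Before the results, they were compared with lists of marker genes. The macrophage and monocyte genes set animal 1 apart. CD14 itself, the surface protein used for the sort, measured 14.24 in the blood of animal 1 and 6.31, 7.63 and 6.69 in the blood of animals 2 to 4. Over the 9 of 10 listed macrophage and monocyte genes found on the array, the summed intensity was 109011 in the blood of animal 1 and 4141 to 7042 in the other 3 blood samples. In endometrium it was 121207 in animal 1 and 11372 to 40030 in the others. The granulocyte list summed to 68726 in the blood of animal 1 and to 773 to 7152 in the other 7 samples. S100A12 made 88.5% of that sum and CSF3R 10.3%. IL8RB measured 8.31 there and 6.52 to 7.30 in the other blood samples, and LTF 7.24 there and 6.03 to 6.82 in the others. MPO and AZU1 measured 6.56 and 6.67 there, against 6.47 to 6.93 in the other blood samples. CAMP and MMP8 were at background in all channels. Erythroid genes stood apart in the endometrium of animal 2, where 8 of 14 listed genes summed to 174730, against 1083 to 16176 in the other 7 samples. SLC4A1 was at background in all channels.

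Of 13 tested epithelial genes out of 14 listed, 11 measured higher in the endometrium of every animal, against 10.2% of all probes tested. Their sums were 17252 to 126846 in endometrium and 2286 to 4473 in blood, and none was at background in all channels. Trophoblast genes summed to 16478 to 57930 in endometrium and 1720 to 3515 in blood, with GCM1 at background. Of the 11 tested, 5 were called by the rule given below, against 0.0661% of all probes tested. In every animal 8 measured higher in endometrium, against 10.2% of all probes tested. Among those 8, ELF5 was tested only through its endometrial channels. It was well above background in 6 of 8 channels there, against 2 of 8 in blood. PAG1 had a mean log2 ratio of -1.44, TFAP2A -0.22 and CYP19A1 0.03. In sorted cells measured in bulk, fewer cells of a type and less RNA per cell cannot be told apart.

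**Figure D1:**
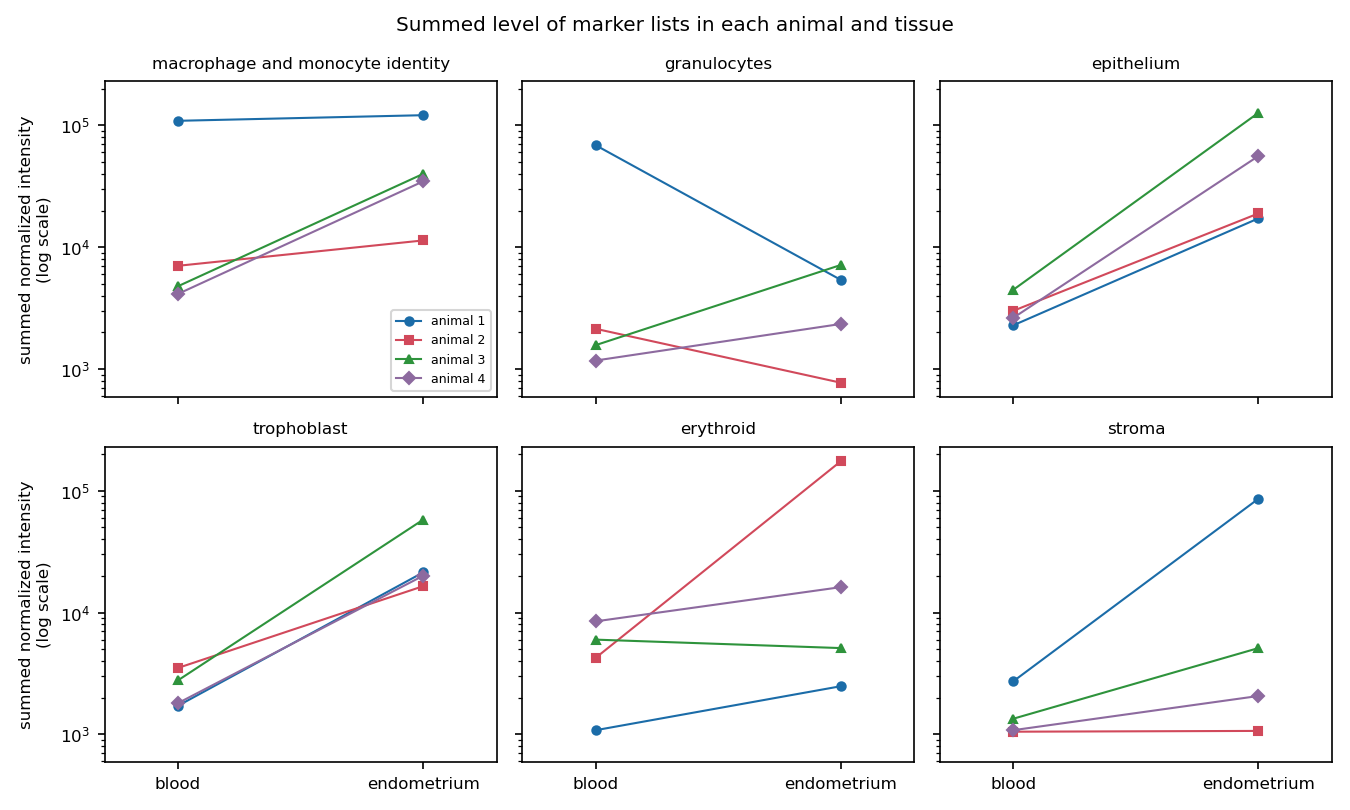
Summed normalized intensity (log axis) of 6 marker lists in the blood and endometrial CD14+ cells of 4 animals, each line joining the tissues of an animal. The macrophage sum and the granulocyte sum, made mostly by S100A12, are highest in the blood of animal 1 among the 4 blood samples, and the erythroid sum reaches 174730 in the endometrium of animal 2.

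Most of the 9 genes were measured at higher levels in endometrial cells. Taking the brightest probe of each, HMOX1, BLVRA, FTH1, FTL, TFRC and CP measured higher in the endometrium of all 4 animals, which is 6 of 9 genes against 10.2% of all probes tested. SLC40A1 was higher in 3 animals, BLVRB in 2 and SLC11A1 in 1. The median log2 ratio of the 9 genes was 1.69, against -0.02 for all 16654 probes tested. By animal, that median was 0.93, 1.40, 2.56 and 1.81 in animals 1 to 4, so it was above 0 in each.

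A probe was called where its adjusted p in limma did not exceed 0.05 and its fold change exceeded 2. None of the 12 probes was called, against 0.0661% of all probes tested. Their adjusted p ran from 0.234 for LOC522336 to 0.998 for BLVRB. With the unadjusted p in place of the adjusted one, 5 of the 9 genes (HMOX1, BLVRA, FTL, TFRC and CP) were higher in endometrium, against 5.27% of all probes. No gene of the 9 was higher in blood by that rule, against 5.11%. With 4 animals, exchanging tissues within an animal in an exact 2-sided permutation test gives no p below 0.125. When the 8 arrays entered limma singly, with terms for dye and a correlation within animals, 6 of the 12 probes were called, each higher in endometrium, against 4.76% of all probes in that fit. Those 8 arrays are technical replicates of the same 4 animals, so the fit adds arrays but no animals.

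**Figure D2:**
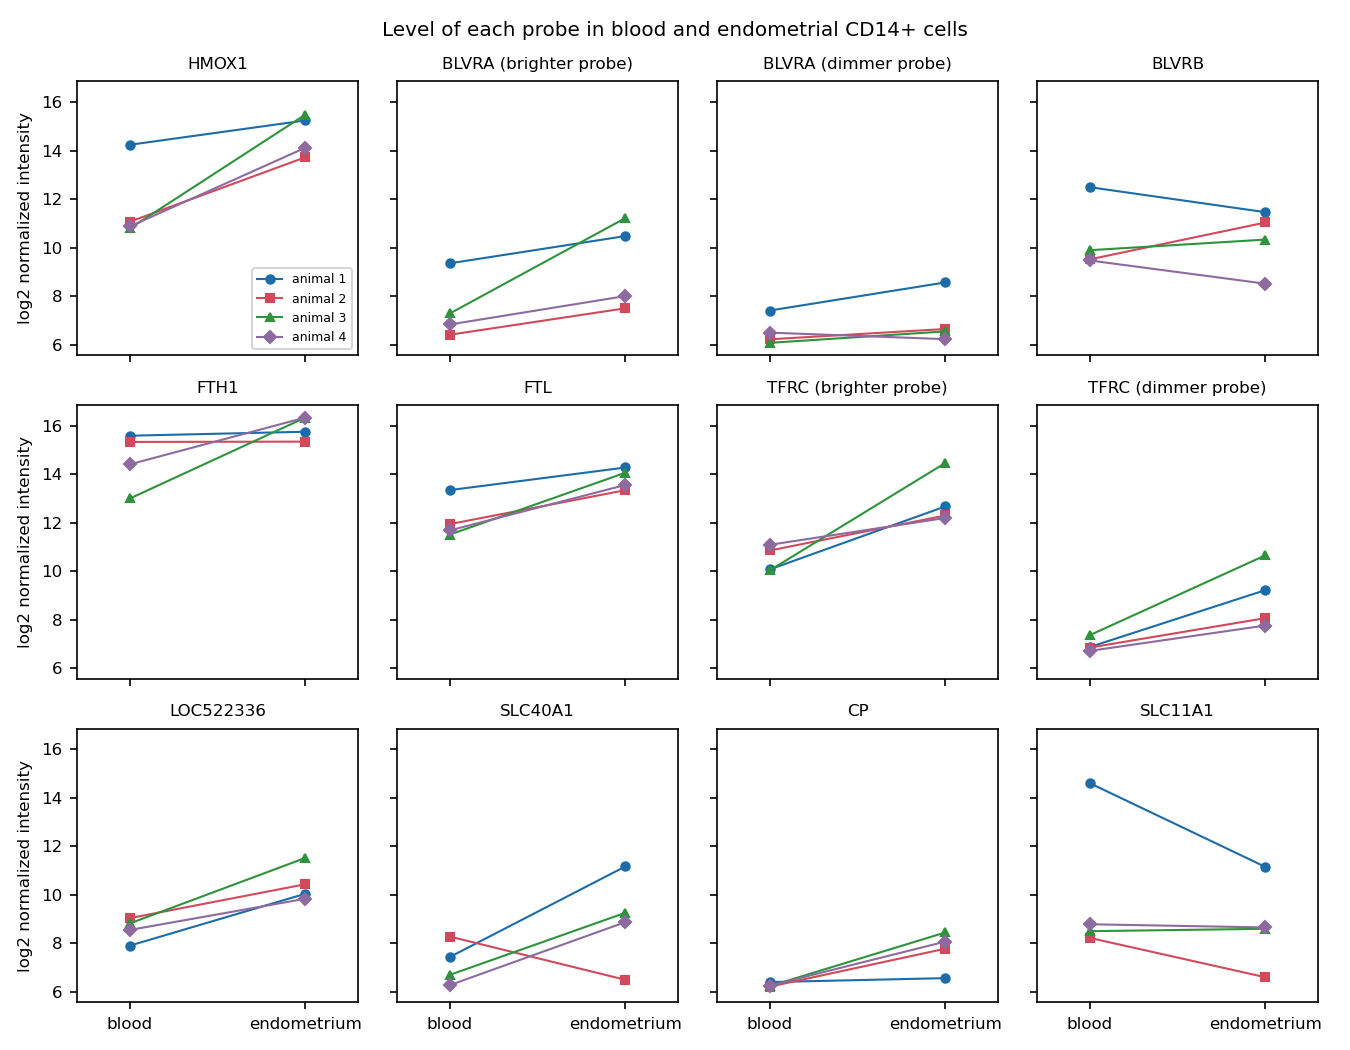
Level of each of the 12 probes (log2 normalized intensity) in blood and endometrium, each line joining the tissues of an animal. The lines of HMOX1, FTL and TFRC go up in all 4 animals, and the blood of animal 1 stands high for HMOX1, BLVRB and SLC11A1.

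HMOX1, the inducible heme oxygenase that splits heme into biliverdin, carbon monoxide and iron, had the largest mean ratio of the 9 genes. Its level in endometrium was 15.24, 13.73, 15.48 and 14.12 in animals 1 to 4. In blood it was 14.24, 11.07, 10.79 and 10.88. The blood of animal 1 was the high sample, and it alone among the blood samples reached the endometrial range. The log2 ratios were 1.00, 2.66, 4.69 and 3.24, with a mean of 2.90 ± 1.52 (SD, n = 4), or 7.45-fold, a standard error of 0.60 and an adjusted p of 0.262 in limma. Without animal 1, the mean was 3.53. The sample with the high blood level is the one whose macrophage and monocyte sum and whose S100A12 and CSF3R levels were also high, and the part of other cells in the result was not tested.

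The genes acting after HMOX1 were less alike. BLVRA, which reduces biliverdin to bilirubin, had 2 probes. The brighter measured 10.48, 7.50, 11.22 and 8.01 in the endometrium of animals 1 to 4 and 9.36, 6.41, 7.29 and 6.84 in blood. Endometrium was higher in each animal, while the groups overlapped. Its mean log2 ratio was 1.83 ± 1.40 (SD, n = 4), with an adjusted p of 0.272 in limma. Animal 3, at 3.93, was far above the others, which lay between 1.09 and 1.17, and without it the mean was 1.13. The dimmer probe was well above background in 6 of 8 endometrial and 4 of 8 blood channels, and its mean was 0.45 ± 0.58, with a negative value of -0.27 in animal 4. The probes thus disagreed in size, and in sign in animal 4.

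BLVRB, a flavin and biliverdin reductase abundant in red cells, showed no common direction. Its ratios were -1.03, 1.52, 0.44 and -0.96 in animals 1 to 4, with a mean of -0.01 ± 1.22 (SD, n = 4) and an adjusted p of 0.998 in limma. Its blood level was 12.49 in animal 1 and 9.47 to 9.90 in the others, the same sample that stood high for HMOX1. The endometrium of animal 2, where BLVRB was furthest above blood, is the sample with the high erythroid sum, whose part was not tested. Without animal 2 the mean was -0.52, and without animal 1 it was 0.33.

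Of the ferritin chains, the light chain FTL had the steadier difference. Its level in endometrium was 14.27, 13.34, 14.06 and 13.55 in animals 1 to 4, and 13.34, 11.94, 11.51 and 11.68 in blood. The groups met only where the blood of animal 1 and the endometrium of animal 2 were both at 13.34. The log2 ratios were 0.93, 1.40, 2.55 and 1.87, with a mean of 1.69 ± 0.69 (SD, n = 4), or 3.22-fold, and an adjusted p of 0.253 in limma. Within each slide, which held 1 array of every animal, the mean was 1.74 and 1.63.

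FTH1, the heavy chain that oxidizes iron as it enters the shell, measured 15.75, 15.34, 16.33 and 16.33 in endometrium and 15.58, 15.32, 12.997 and 14.40 in blood. In the endometrium of animals 3 and 4 it ranked 1 among all probes, at the top of the quantile scale. Its ratios of 0.16, 0.01, 3.33 and 1.93 split the animals, with a difference near 0 in animals 1 and 2. The mean was 1.36 ± 1.58 (SD, n = 4), with an adjusted p of 0.366 in limma, and without animal 3 it was 0.70. FTH1 also had the largest gap between the arrays of an animal. In animals 1, 2 and 4 the ratio was 0.93, 0.21 and 2.42 with endometrium in Cy5, and -0.60, -0.18 and 1.43 with endometrium in Cy3. The sign in animals 1 and 2 differed between dyes, which lay on different slides, and animal 3 had endometrium in Cy5 on both arrays.

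TFRC, the receptor for iron-laden transferrin, separated the tissues with both of its probes. The brighter measured 12.67, 12.30, 14.46 and 12.19 in endometrium and 10.08, 10.86, 10.04 and 11.09 in blood, so the lowest endometrial level was 1.1 above the highest blood level. Its ratios of 2.59, 1.44, 4.42 and 1.1 gave a mean of 2.39 ± 1.5 (SD, n = 4), or 5.24-fold, with an adjusted p of 0.262 in limma. The dimmer probe had ratios of 2.34, 1.21, 3.29 and 1.04, a mean of 1.97 ± 1.05 and the same adjusted p of 0.262. Both probes ranked animals 3, 1, 2 and 4 in the same order. In the blood of animal 1 TFRC was not high, unlike HMOX1, with 10.08 among blood levels of 10.04 to 11.09.

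The LOC522336 probe behaved much like those of TFRC, with ratios of 2.14, 1.40, 2.70 and 1.28 and groups that did not overlap. Its mean was 1.88 ± 0.66 (SD, n = 4), with an adjusted p of 0.234 in limma. By brightest probes, TFRC and CP were the 2 of the 9 genes whose endometrial levels all lay above all blood levels, against 2.41% of all probes tested. None of the 9 had all blood levels above all endometrial levels, against 3.03%. The number with all endometrial levels above all blood levels depended on the animals kept. It was 6 of the 9 genes without animal 1 (7.8% of all probes), 5 without animal 2 (4.49%), and 2, TFRC and CP, without animal 3 (4.38%) or animal 4 (6.53%). The median log2 ratio of the 13 tested epithelial genes was 2.54, 1.76, 3.89 and 1.1 in animals 1 to 4, the order of animals seen for TFRC, and the part of epithelial cells in the TFRC result was not tested.

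Export genes differed between animals. SLC40A1 encodes ferroportin, the iron exporter, and measured 11.17, 6.50, 9.26 and 8.88 in endometrium and 7.44, 8.28, 6.70 and 6.28 in blood. Animal 2 ran against the others, with a log2 ratio of -1.78 beside 3.73, 2.56 and 2.59. The mean was 1.77 ± 2.43 (SD, n = 4), with an adjusted p of 0.413 in limma, without animal 2 it was 2.96, with an adjusted p of 0.209, and without animal 1 it was 1.12. The endometrium of animal 2 had the lowest SLC40A1 level of that tissue, and also its lowest macrophage and monocyte sum and its highest erythroid sum. That macrophage sum was 121207, 11372, 40030 and 34744 in the endometrium of animals 1 to 4. The part of either was not tested.

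CP, or ceruloplasmin, is a copper-bearing ferroxidase that helps load exported iron onto transferrin. It measured 6.57, 7.78, 8.45 and 8.08 in endometrium and between 6.22 and 6.41 in blood, where it was well above background in 4 of 8 channels. Its ratios were 0.16, 1.56, 2.21 and 1.81, with a mean of 1.44 ± 0.89 (SD, n = 4) and an adjusted p of 0.262 in limma. In the authors' value table the mean was 4.06 ± 2.53, and with a smaller offset of 10 in the background correction it was 2.35.

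SLC11A1, a metal transporter of the phagosome membrane known for resistance to intracellular microbes, had the lowest mean ratio of the 9 genes, on the side of blood. It measured 14.59 in the blood of animal 1 and 8.22, 8.50 and 8.79 in the blood of animals 2 to 4. In endometrium it measured 11.15, 6.60, 8.60 and 8.66. Its ratios were -3.45, -1.62, 0.10 and -0.13, with a mean of -1.27 ± 1.64 (SD, n = 4) and an adjusted p of 0.395 in limma. Without animal 1, the mean was -0.55. That blood sample also had the high CD14 level, the high macrophage and monocyte sum and the high S100A12 and CSF3R levels given above, and their part in the SLC11A1 result was not tested.

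The authors' value table, read through the same labels, gave mean log2 ratios of 2.97 ± 1.59 for HMOX1, 1.71 ± 0.72 for FTL, 1.42 ± 1.61 for FTH1 and -0.01 ± 1.28 for BLVRB. Those of TFRC were 2.44 ± 1.49 and 2.99 ± 1.24 for its brighter and dimmer probe. BLVRA had 2.90 ± 1.86 and 1.35 ± 1.82, SLC40A1 2.69 ± 3.99, SLC11A1 -1.60 ± 1.84 and LOC522336 2.11 ± 0.76. Both processings start from the same channels, and all 12 probes had the same sign in both.

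**Figure D3:**
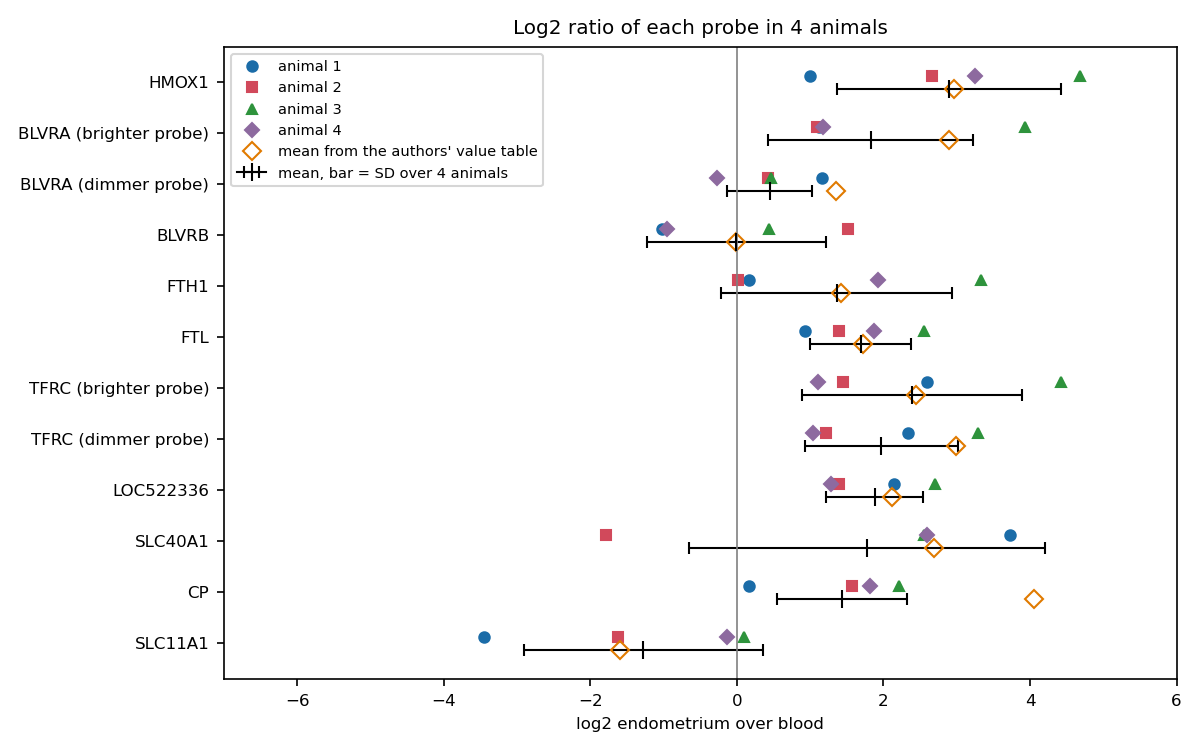
Log2 ratio of endometrium over blood for each of the 12 probes in each of 4 animals, with the mean and SD, and the mean from the authors' value table as an open diamond. HMOX1, FTL and both TFRC probes lie right of 0 in all 4 animals, SLC40A1 has animal 2 at -1.78, and the open diamond of CP lies at 4.06 beside a mean of 1.44.

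Over the 8 means of animal and tissue, the gene whose level was most like that of HMOX1 was FTL, another of the 9 genes, with a Pearson r of 0.99. SLC25A11, a mitochondrial carrier of oxoglutarate and malate, had 0.99, COQ7, an enzyme of ubiquinone synthesis, 0.98, AIF1, a calcium-binding protein of macrophages, 0.97, and NDUFA8, a subunit of mitochondrial complex I, 0.97. Among the 9 genes, r with HMOX1 was 0.88 for BLVRA, 0.79 for FTH1, 0.71 for TFRC and 0.33 for SLC11A1. These values describe 8 samples in pairs that share an animal and arrays.

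The wider set of iron and heme genes had a median nearer to that of all probes. Of 54 further genes found on the array out of 63 listed, 47 were tested and none was called, with adjusted p from 0.262 upwards in limma. By the rule with the unadjusted p, 3 of the 47 were higher in endometrium and 2 in blood, against 5.27% and 5.11% of all probes tested. Their median log2 ratio was 0.08. In 4 of 4 animals, 9 of the 47 were higher in endometrium (19.1%, against 10.2% of all probes tested) and 4 were lower (8.51%, against 14.7%). Among those 9, SLC39A8 and CISD1 were tested only through their endometrial channels. They were well above background in 6 and 4 of 8 channels there, against 3 and 0 in blood.

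Heme and hemoglobin uptake and transport had 8 tested genes with a median log2 ratio of 0.25. CD163, the scavenger receptor for hemoglobin bound to haptoglobin, had ratios of 1.19, 0.69, 3.10 and 3.20 and a mean of 2.05, with an adjusted p of 0.262 in limma. FLVCR1, a heme exporter, was lower in endometrium in 4 of 4 animals, with ratios of -0.93, -0.92, -2.04 and -0.91 and a mean of -1.20. Haptoglobin itself, HP, had -5.13 in animal 1 and -0.23 to 0.22 in the others.

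In heme synthesis, 3 of 8 tested genes measured higher in endometrium in every animal and none lower, with a median of 0.40. They were ALAD, UROS and PPOX, enzymes of successive parts of the pathway, with means of 1.32, 0.75 and 0.69 and adjusted p of 0.323 to 0.334 in limma. ALAS2, the erythroid form of the first enzyme, had a ratio of 5.0 in animal 2 and -0.55 to 0.25 in the others, beside the high erythroid sum of that sample. HBA, HBB and HBG, which encode globin chains, had 6.41, 4.77 and 5.33 there.

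The other lists lay closer to all probes. Among 8 tested genes of iron uptake and intracellular traffic, the median was 0.15, and the metal importer SLC39A8 (0.90) and SNX3 (0.86), a sorting protein in transferrin receptor recycling, were higher in 4 of 4 animals. SLC39A8 was well above background in 6 of 8 endometrial and 3 of 8 blood channels. Among 12 genes of iron sensing and the hepcidin axis the median was -0.05. BMPR1A, a receptor for bone morphogenetic proteins, was higher in 4 of 4 animals with a mean of 1.56. BACH1, a repressor of HMOX1 that heme releases, was lower in 4 of 4 with -0.83, ranging from -1.69 in animal 2 to -0.04 in animal 4.

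Among 9 tested genes of mitochondrial iron and iron-sulfur clusters the median was -0.21, with ISCA1, an iron-sulfur assembly protein, at -0.76 and lower in 4 of 4 animals. CISD1, an iron-sulfur protein of the outer mitochondrial membrane, was at 0.19 and above background in no blood channel. Of the iron-binding proteins of host defence, LTF (lactoferrin) had a mean of 1.17 and LCN2, which binds bacterial siderophores, -1.11. Each kept 1 direction in 4 of 4 animals. None of the genes named from these lists passed the adjusted test.

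**Figure D4:**
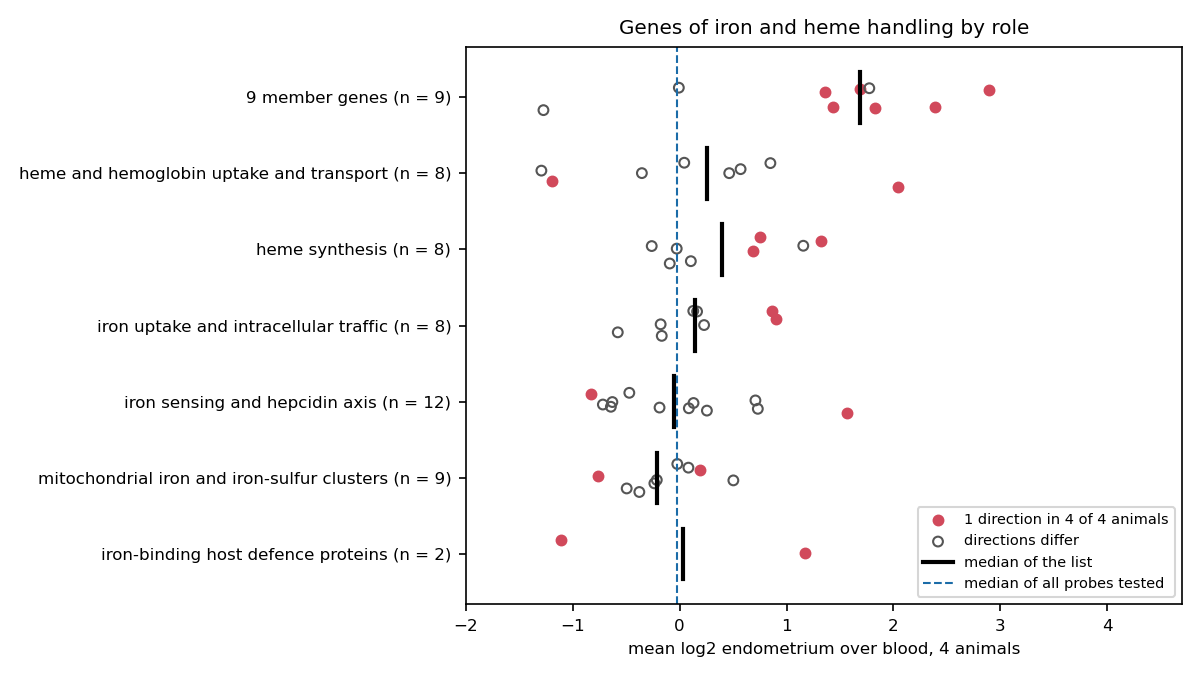
Mean log2 ratio of endometrium over blood over 4 animals for the 9 genes (brightest probe) and for the tested genes of 6 other lists, with filled points for genes with 1 direction in 4 of 4 animals. The median of the 9 genes is 1.69, while the other lists have medians from -0.21 to 0.40 around the -0.02 of all probes tested.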

How the data were processed

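The authors deposited scanner files with median and processed intensity of each spot and dye, extracted with Feature Extraction (9.5 per the labels, 10.5.1.1 per the file headers), and a table of log2 values that the authors had normalized by lowess and quantiles. Each column's values were put in the rank order of a scanner file's processed signal and averaged over a probe's spots. With the file attached to the animal's other technical replicate, they matched the column at 100.0% of probes, within 0.001. Single spots matched at 40.9% to 41.0%. The file attached by the labels matched at no more than 0.69% of probes. Files were therefore read as those of the other technical replicate, a choice made after seeing the values.

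Intensities were background corrected in limma 3.58.1 (R 4.3.3, statmod 1.5.0, data.table version 1.17.8) by normexp with offset 50, then normalized by loess within arrays and quantiles over 16 channels. Spots of a probe were averaged, without control and outlier spots. No spot was saturated. Depth has no counterpart here, and the number of arrays limits precision. Tested probes (16654 of 21475) stood well above background in 4 or more of 8 channels of either tissue. limma tested the 4 ratios, each the mean of 2 arrays, against 0, with Benjamini-Hochberg adjustment over all probes tested. Fits were tested on simulated data. Pairing comes from the labels, and deviations of an animal's tissues correlated with r of 0.62, 0.36, 0.21 and 0.47.

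The genes and lists were chosen with earlier results of these data known. Named from each other iron list were up to 3 genes with the largest ratio of 1 sign in 4 of 4 animals, and HP, ALAS2, S100A12 and the lymphocyte genes were added after their values were seen. Names come from the files and from a gene table of assembly ARS-UCD2.0, and a gene's brightest probe stood for it. Genome coordinates, quantitative PCR and flow cytometry were not used here.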

Additional observations from a re-analysis of the deposited data

Results flagged for a closer look

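In 11 of the 71 groups of 4 values examined, 1 animal lay far from the other 3 by Dixon's criterion at the 95% level. The groups share animals, and some are of genes named after their values were seen. The count therefore cannot be set against a rate by chance. The blood of animal 1 was far above the other blood samples for HMOX1 (14.24 against 10.79 to 11.07), BLVRB (12.49 against 9.47 to 9.90) and SLC11A1 (14.59 against 8.22 to 8.79). Among the ratios, the brighter BLVRA probe had 3.93 in animal 3 against 1.09 to 1.17, and FLVCR1 had -2.04 in animal 3 against -0.93 to -0.91. Among marker genes, animal 2 had ratios of 5.33 for HBG (0.37 to 0.71 in the others) and 4.77 for HBB (-0.08 to 0.61), and animal 1 had -4.81 for CSF3R (-0.19 to -0.16). Among genes named after their values were seen, HP had -5.13 in animal 1 (-0.23 to 0.22), ALAS2 5.0 in animal 2 (-0.55 to 0.25) and CD14 -2.08 in animal 1 (0.11 to 0.51).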

How the results depend on the processing

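The number of probes called among all probes was 11 and moved with most settings. It was 224 with the authors' log2 values, 224 with processed signals of the scanner, 86 with a normexp offset of 10, 55 with probes well above background in all channels, 5 without quantiles, 5 with no filter, and 20 and 5 with technical replicate 1 or 2 only. With the replicate block left out, the unpaired fit gave 4. It was 0 on leaving out any animal (0 to 0, with 916 to 2258 at an unadjusted p of at most 0.05), 0 in the methods' analysis of variance (687 unadjusted) and 0 with the files as attached (121 unadjusted). Fitting 8 single arrays, with dye as a term and a random block for animal, gave 792 calls, and 6 of the 12 iron and heme probes and 3 of the other iron and heme genes (CD163, FLVCR1 and BMPR1A) were then called, while every other setting gave 0 calls for both sets. The cause was not tested. Unpaired, 7 of the 12 probes passed at the unadjusted p, as did 7 in the paired fit, but FTH1 was gained (p from limma 0.0453 unpaired) and the brighter BLVRA probe lost (0.102), and over all probes 1124 did so, against 1729 paired. Without quantiles, 977 probes were higher and 585 lower at an unadjusted p, against 878 and 851. The processed signal put the median of all probes at -0.14, against -0.02.

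BLVRB changed sign without quantiles (0.12), with technical replicate 2 only (0.052), without animal 1 (0.33) or animal 4 (0.31; range over animals left out -0.52 to 0.33) and with the files as attached (0.23). Read as attached, the files turned the ratio of animals 1, 2 and 4, and the mean log2 ratio became -0.55 for HMOX1, -0.21 for the dimmer BLVRA probe, -0.41 for FTL, -0.18 and -0.33 for TFRC, -0.53 for LOC522336, -0.50 for SLC40A1, -0.33 for CP and 1.32 for SLC11A1. So did CD163 (-0.49), FLVCR1 (0.18), UROS (-0.39), PPOX (-0.37), SNX3 (-0.31), BMPR1A (-0.13), BACH1 (0.42), ISCA1 (0.20) and CISD1 (-0.15), and the marker genes HBA (-3.29), HBG (-1.37), HBB (-1.36), PAG10 (-1.82), PAGE4 (-1.69), PRP6 (-2.0), SERPINA14 (-2.34), CLDN3 (-1.18), KRT18 (-1.04), MSR1 (-1.64), AIF1 (-0.58), CSF1R (-1.19), CSF3R (1.26) and IL8RB (0.56). Of genes named after their values were seen, the files as attached turned HP (1.27), ALAS2 (-1.43), CD14 (0.59), S100A12 (1.91), CD22 (0.13), NKG7 (-1.0) and CD2 (-0.60). Over the animals left out, ALAS2 ranged from -0.13 (without animal 2) to 1.73, CD14 from -0.61 to 0.25 (without animal 1) and S100A12 from -1.66 to 0.49 (without animal 1), with 0.18 without animal 2. No other sign changed among the 12 probes and the genes listed for these settings. Signal over background limits CP and the dimmer BLVRA probe most.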

Other observations

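Lymphocyte genes were also measured, and none was called. All 7 tested B cell genes had a mean on the side of blood, from -2.14 for CD22 to -0.99 for PAX5. On that side, 4 of them passed with an unadjusted p up to 0.05 and more than a 2-fold change, against 5.11% of all probes tested. Among those 4, CD79B was tested only through its blood channels. It was well above background in 8 of 8 channels there, against 2 of 8 in endometrium. The adjusted p of the 7 was 0.254 to 0.397 in limma. Of 10 natural killer and T cell genes, 4 were higher in endometrium by the rule with the unadjusted p, against 5.27% of all probes tested. Among them were NKG7 at 1.59 and CD2 at 1.52, while the list ran from -0.41 to 1.59. The median log2 ratio of the 10 tested stromal genes was highest in animal 1, at 4.69 against 0.00 to 1.84 in the others. COL3A1, LUM and THY1 among them were tested only through their endometrial channels. COL6A2 went the other way in animal 1, at -1.08. Of the macrophage genes, MSR1 had a mean of 3.01 and CSF1R of 2.76, both higher in endometrium in 4 of 4 animals, and CD14 itself had ratios of -2.08, 0.11, 0.51 and 0.13 in animals 1 to 4.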
